A study of Mus musculus with 10 samples.

Results

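The 10 genes described here belong to the uptake, binding, storage, oxidation and sensing of vitamin A. They include Stra6 (receptor for plasma retinol-binding protein), Bco1 and Isx (carotenoid cleavage and the control of uptake), Rbp2 (binding) and Lrat (esterification). The others are Rdh7 and Adh1 (oxidation of retinol), Aldh1a1 (synthesis of retinoic acid), Cyp26b1 (its breakdown) and Rara (its receptor). All 10 were taken by name from the 54838 genes listed for each library, and the list was drawn up with earlier results of these data known. The 10 RNA-seq libraries came from crypts of the jejunum, with 5 animals of the WT and 5 of the Arid3a cKO genotype and 1 animal in each library, collected 1 month after tamoxifen, to learn which transcripts change when Arid3a, an AT-rich interaction domain transcription factor, is lost from the intestinal epithelium. The cKO mice were VillinCre-ERT2+/-; Arid3a fl/fl, in which tamoxifen activates a Cre recombinase driven by the Villin promoter, so that deletion is limited to Villin-expressing epithelial cells, and the WT mice were given tamoxifen as well. Whether the WT mice carried the Cre transgene, and the age and sex of either group, are not given in the sources used here. Villi were removed by scraping, the crypts were collected from what remained, and polyadenylated RNA was used. The labels name the WT animals and the cKO animals with different letter codes, whose meaning is not given in the sources used here, and anything these stand for cannot be told apart from the genotype.

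Dietary vitamin A reaches the enterocyte as retinol or as provitamin A carotenoids, which are cleaved to retinal. Inside the cell retinol is held by a binding protein, esterified for export in chylomicrons, or oxidised through retinal to retinoic acid, the ligand of nuclear receptors that pair with retinoid X receptors. In the gut, retinoic acid also feeds back on uptake: it induces Isx, a homeobox repressor of the carotenoid transporter gene Scarb1 and of the cleavage enzyme gene Bco1.

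Of the 10 genes, 8 passed the filter on low counts, and 5 of these 8 were higher in Arid3a cKO crypts while none was lower, by edgeR's quasi-likelihood test on expected counts with Benjamini-Hochberg adjustment over all 14719 genes tested (a gene is called at an adjusted p below 0.05). Over all genes tested, 28.3% were called, 15.6% as higher and 12.7% as lower. The 5 that rose were Rbp2, Rdh7, Aldh1a1, Adh1 and Lrat, by 0.41 to 1.78 on the log2 scale. Bco1, Isx and Rara were not called, with log2 fold changes of 0.31, 0.02 and 0.01, and Cyp26b1 and Stra6 had too few counts to test. The median log2 fold change of the 8 genes was 0.45, against -0.03 for all genes tested. The rise of Rbp2, Rdh7 and Aldh1a1 went together with that of the enterocyte markers, whose values are given with them further on, and in bulk crypts a change in the number of cells of a type and a change in the RNA per cell cannot be told apart.

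Each library held between 27050455 and 31053622 expected counts, so that a level of 1 CPM (counts scaled by library size and TMM factor) stood for 26.4 to 29.9 counts. Arid3a itself had 55 to 81 counts in each WT library and 9 to 31 in each cKO library, a log2 fold change of -1.84 (SE 0.32, adjusted p = 0.00204, edgeR), with no overlap between the groups. Which exons the floxed allele removes is not given in the sources used here, so the counts left in the cKO were not resolved by exon. The epithelial markers Epcam, Cdh1, Vil1 and 4 keratins summed to 4421 to 5507 TPM (a level corrected for transcript length) in every library. The crypt-base markers Lgr5, Olfm4 and Ascl2 were all detected. The ileal marker Fabp6 had a mean of 0.886 TPM in both groups, and the jejunal factor Gata4 stood at 103 and 100.1 TPM in WT and cKO. Other markers of these regions differed more between WT and cKO. Among ileal markers Slc51a had means of 32.55 and 61.17 TPM and Slc51b 19.67 and 43.23, neither called, while Nr0b2 was called as higher. Among proximal markers Slc40a1 (15.81 and 54.46) and Slc9a3r1 (136.6 and 277.3) were called as higher, and Cybrd1, Onecut2 and Tfrc were not called.

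The start-site windows of the 3 members with the largest fold changes, and of Bco1 and Isx as the carotenoid enzyme and its repressor, which were not called, are shown so that the reader can compare the letters in front of genes that rose and genes that did not. Each runs from 250 bases before to 50 bases after the start of a RefSeq transcript on GRCm38.p6, read 5′ to 3′ along the gene, and capitals mark CAAAG or its reverse complement CTTTG, the core shared by many binding sites of HNF4 and retinoid X receptors. In Bco1 the capitals cover a whole direct repeat, GGTCANAGGTCA or its reverse complement, within which the CTTTG lies. The windows are chr9:98490287-98490586 on the plus strand for Rbp2, chr10:127888684-127888983 on the minus strand for Rdh7, chr19:20601718-20602017 on the plus strand for Aldh1a1, chr8:117095615-117095914 on the plus strand for Bco1 and chr8:74872924-74873223 on the plus strand for Isx.
Rbp2: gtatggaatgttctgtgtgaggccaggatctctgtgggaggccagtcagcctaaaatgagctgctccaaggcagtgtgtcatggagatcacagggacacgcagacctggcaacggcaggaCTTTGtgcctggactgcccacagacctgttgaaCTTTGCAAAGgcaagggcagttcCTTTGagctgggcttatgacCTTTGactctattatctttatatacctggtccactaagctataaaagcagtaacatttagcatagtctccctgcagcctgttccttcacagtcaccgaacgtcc
Rdh7: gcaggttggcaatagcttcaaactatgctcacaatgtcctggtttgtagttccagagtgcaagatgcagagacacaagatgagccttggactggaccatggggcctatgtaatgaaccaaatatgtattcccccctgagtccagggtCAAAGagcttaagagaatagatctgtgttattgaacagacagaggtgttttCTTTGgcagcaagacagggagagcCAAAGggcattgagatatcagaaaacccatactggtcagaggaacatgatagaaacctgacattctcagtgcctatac
Aldh1a1: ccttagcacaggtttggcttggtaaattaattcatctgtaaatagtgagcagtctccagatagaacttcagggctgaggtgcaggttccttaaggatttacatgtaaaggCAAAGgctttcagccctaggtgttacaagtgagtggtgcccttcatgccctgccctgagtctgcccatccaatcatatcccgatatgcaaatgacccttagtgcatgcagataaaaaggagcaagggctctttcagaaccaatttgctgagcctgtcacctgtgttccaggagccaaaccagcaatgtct
Bco1: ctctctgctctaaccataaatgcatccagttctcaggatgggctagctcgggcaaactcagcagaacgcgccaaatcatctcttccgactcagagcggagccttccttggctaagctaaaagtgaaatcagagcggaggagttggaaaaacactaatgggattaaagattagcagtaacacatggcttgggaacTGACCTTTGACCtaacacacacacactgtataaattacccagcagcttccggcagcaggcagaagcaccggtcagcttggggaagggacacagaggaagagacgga
Isx: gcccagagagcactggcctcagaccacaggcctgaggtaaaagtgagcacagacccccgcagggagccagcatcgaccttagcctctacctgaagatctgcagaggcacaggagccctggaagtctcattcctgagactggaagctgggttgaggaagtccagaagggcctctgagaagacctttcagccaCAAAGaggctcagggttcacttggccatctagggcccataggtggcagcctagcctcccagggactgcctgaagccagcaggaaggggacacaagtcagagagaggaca

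The Rbp2 window held 5 matches to CAAAG on either strand, with first bases at -130, -97, -92, -74 and -54 (the start being 0), and the match at -92 abuts the one before it. At least 1 match occurred in 53.93% of the 32851 RefSeq promoter windows of the genome, and at least 5 in 0.29%. The Rdh7 window shown held 3 matches, a number reached by 5.54% of all windows, and its other RefSeq window held 1. Aldh1a1 had 1 match in the window shown, whose start site lies 7 bases from an Ensembl transcript start, and 5 in a second window at a start farther upstream (chr19:20492333-20492632). The Bco1 repeat lay at -56 to -45, and that motif occurred in 0.08% of all windows. Isx had 1 match, at -59. CAAAG was absent from the windows of Lrat and Adh1, which rose, and present in 1 of the 4 windows of Rara, which was not called. In all it was found in 12 of the 18 windows of the members, beside 53.93% of all windows. These belonged to 8 genes, among them Stra6 and Cyp26b1, which had too few counts to test. Over the 18 windows of the 10 genes, the HNF4 motif CAAAGTCCA (0.47% of all windows), the retinoic acid repeats GGTCANNAGGTCA (0.02%) and GGTCANNNNNAGGTCA (0.05%) were not found on either strand. The AT-rich word ATTAAA, searched as a match to the ARID3A motif, was found in windows of Bco1 and Stra6 and in 13.91% of all windows. The CDX word TTTATNG was found in 4 of the 18 windows (Bco1, Cyp26b1, Rbp2 and Stra6) and in 10.91% of all windows. In Rbp2 and Cyp26b1 the match reads CTATAAA and holds the TATA box word TATAAA, which lies at -15 to -10 in Rbp2. TATAAA, searched along the gene strand only, was found in 3 of the 18 windows (Bco1, Cyp26b1 and Rbp2) and in 8.32% of all windows. The GATA word AGATAA was found in 4 of the 18 (Adh1, Aldh1a1, Rbp2 and Stra6) and in 11.18% of all windows. A match is a description of the letters, and no binding was measured in these libraries.

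Rbp2, the cellular retinol-binding protein of absorptive enterocytes (ENSMUSG00000032454, protein coding, GRCm38 chr9:98486115-98509781, plus strand), was the most abundant member in both genotypes. It stood at 1111.77, 1817.24, 527.87, 320.77 and 997.08 TPM in WT animals 1 to 5. In cKO animals 1 to 5 it stood at 2931.41, 2399, 1723.56, 3054.31 and 3024.47 TPM. The cKO libraries were high as a group, but the groups overlapped, since WT 2 lay above cKO 3, and WT 3 and WT 4 were lowest. The means were 954.9 ± 581.9 TPM in WT and 2627 ± 570 in cKO (SD, n = 5), which moved Rbp2 from rank 157 to rank 34 among all genes by mean TPM. The log2 fold change was 1.53 (SE 0.44, 95% interval 0.52 to 2.53, adjusted p = 0.0314, edgeR), or 2.88-fold. This call was lost, with adjusted p between 0.0529 and 0.0704, when WT 1, WT 3, WT 5, cKO 1, cKO 2, cKO 4 or cKO 5 was left out, at log2 fold changes of 1.37 to 1.58, and with no filter on low counts the adjusted p was 0.0826. Without WT 3 and WT 4 together, the libraries lowest in enterocyte markers, it was 1.06 (adjusted p = 0.0234).

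**Figure D1:**
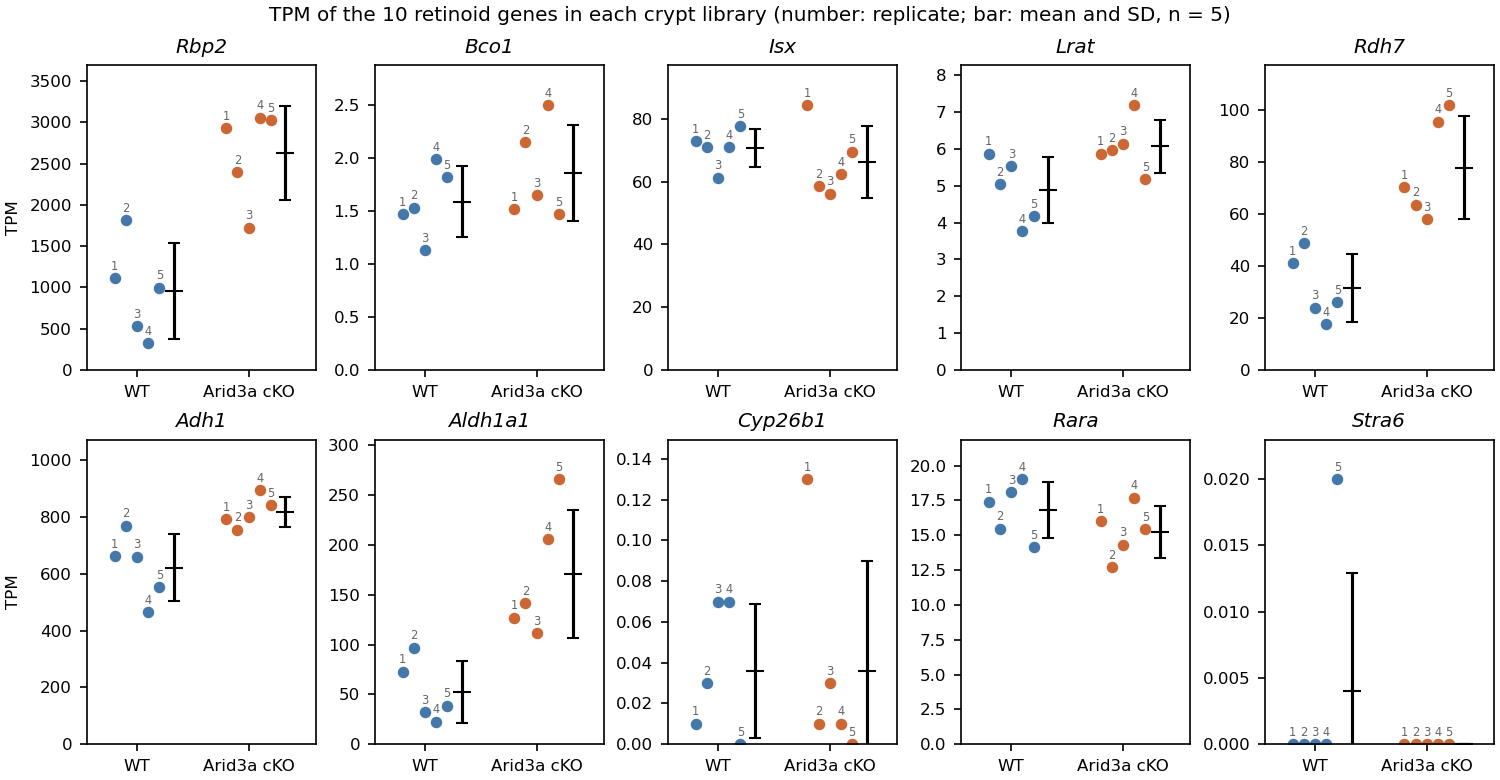
TPM (y axis, linear, from 0, a scale of its own in each panel) of each of the 10 genes in the 5 WT and 5 Arid3a cKO libraries (x axis), with the replicate number above each point and the mean and SD beside it. Rdh7 and Aldh1a1 separate the groups, Rbp2 overlaps through WT 2 and cKO 3, Isx and Rara overlap widely, and Cyp26b1 and Stra6 lie near 0.

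Lrat, lecithin retinol acyltransferase, makes the retinyl esters that enterocytes export (ENSMUSG00000028003, protein coding, chr3:82892579-82903973, minus strand). Its levels in WT animals 1 to 5 were 23.12, 21.25, 22.16, 14.27 and 18.62 CPM, and in cKO animals 1 to 5 they were 25.31, 26.91, 27.1, 29.41 and 23.12 CPM. The groups met but did not overlap on this scale, with WT 1 and cKO 5 equal to 2 decimals, and they overlapped in TPM, where WT 1 and WT 3 lay above cKO 5. The rise was 0.41 on the log2 scale (SE 0.12, adjusted p = 0.0255, edgeR). The call was lost when WT 5, cKO 2, cKO 3 or cKO 4 was left out (adjusted p of 0.0501 to 0.0594), without WT 3 and WT 4 together (0.33, adjusted p = 0.0556), and with scaling by library size alone (0.28, adjusted p = 0.0911) or with TPM as the unit (0.27 and 0.32, adjusted p of 0.112 and 0.113).

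Rdh7 encodes a short-chain dehydrogenase that oxidises retinol and hydroxysteroids (ENSMUSG00000040134, protein coding, chr10:127884028-127888817, minus strand). WT animals 1 to 5 had 41.12, 48.79, 23.99, 17.6 and 26.12 TPM, and cKO animals 1 to 5 had 70.25, 63.49, 58.03, 95.43 and 101.84 TPM. Every cKO library lay above every WT library, with WT 4 and WT 3 again lowest and cKO 5 and cKO 4 highest. This was a log2 fold change of 1.39 (SE 0.30, 95% interval 0.72 to 2.06, adjusted p = 0.00909, edgeR), or 2.61-fold. It stayed past the threshold in all 10 fits that left out 1 animal, at 1.22 to 1.62, and without WT 3 and WT 4 together, at 1.07.

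Adh1, a cytosolic alcohol dehydrogenase that clears excess retinol as well as ethanol (ENSMUSG00000074207, protein coding, chr3:138260991-138290698, plus strand), was the second most abundant member. Its levels were 622.8, 786.2, 640.4, 421.9 and 591.3 CPM in WT animals 1 to 5, and 828.4, 818.2, 854.6, 879.4 and 910.8 CPM in cKO animals 1 to 5. The groups did not overlap in CPM, WT 4 was lowest, and the cKO libraries lay close together, with a coefficient of variation of 4.41% against 21.3% in WT. Adh1 rose by 0.49 on the log2 scale (SE 0.13, adjusted p = 0.0150, edgeR), or 1.40-fold, and it held in all 10 fits that left out 1 animal, at 0.38 to 0.59. In TPM the groups overlapped, with WT 2 at 769.55 above cKO 2 at 755.42.

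Aldh1a1 encodes the retinal dehydrogenase that forms retinoic acid (ENSMUSG00000053279, protein coding, chr19:20492715-20643465, plus strand), and it had the largest fold change of the members tested. In WT animals 1 to 5 it stood at 72.87, 96.74, 32.34, 22.61 and 38.68 TPM, and in cKO animals 1 to 5 at 126.98, 141.74, 111.71, 205.91 and 266 TPM. The groups did not overlap, although WT 2 came near cKO 3, and cKO 5 and cKO 4 were highest, as for Rdh7. The log2 fold change was 1.78 (SE 0.44, 95% interval 0.78 to 2.78, adjusted p = 0.0174, edgeR), or 3.43-fold. It held when any 1 animal was left out, at 1.54 to 2.14, and fell short of the threshold without WT 3 and WT 4 together (1.36, adjusted p = 0.0551). Groups that did not overlap, with cKO higher, were found in CPM for 4 of the 8 tested members, Lrat, Rdh7, Adh1 and Aldh1a1, and for 12.0% of all genes tested. No member lay wholly lower in cKO, as 7.63% of all genes did, and either direction together made 19.6%.

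Isx, the retinoic-acid-induced repressor (ENSMUSG00000031621, protein coding, chr8:74873173-74893506, plus strand), had 72.93, 71, 61.25, 70.88 and 77.74 TPM in WT animals 1 to 5. In cKO animals 1 to 5 it had 84.42, 58.63, 56.14, 62.37 and 69.59 TPM. The groups overlapped throughout, and cKO 1 held the highest value and cKO 3 the lowest, whereas in CPM the lowest was WT 3 (76.9, against 78.6 in cKO 3). The log2 fold change was 0.02 (SE 0.12, 95% interval -0.24 to 0.28, adjusted p = 0.938), and its sign turned with the scaling, to -0.11 with library size alone.

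Bco1, the enzyme that cleaves beta-carotene to retinal (ENSMUSG00000031845, protein coding, chr8:117095854-117133720, plus strand), was scarce, with 57 to 96 counts per WT library and 74 to 128 per cKO library. It stood at 1.47, 1.53, 1.13, 1.99 and 1.82 TPM in WT animals 1 to 5 and at 1.52, 2.15, 1.65, 2.5 and 1.47 TPM in cKO animals 1 to 5. The groups overlapped, with cKO 4 and cKO 2 above all WT libraries. Its log2 fold change was 0.31 (SE 0.20, 95% interval -0.12 to 0.75, adjusted p = 0.260, edgeR). Scarb1, the scavenger receptor that takes up carotenoids and the other Isx target, was likewise not called (0.36, SE 0.20, adjusted p = 0.195). Of the 6 genes of the Isx axis, none passed the threshold: Cdx1 (-0.15, adjusted p = 0.142) and Cdx2 (-0.07, adjusted p = 0.577), caudal homeobox factors of the intestinal epithelium, and Gata4 (0.00, adjusted p = 0.985) completed the list. Over all genes tested 28.3% passed. Cdx1 was called as lower where no composition factor was applied, at -0.28 with library size alone and -0.24 in both fits on TPM, and Gata4 changed sign there.

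Rara, the retinoic acid receptor alpha (ENSMUSG00000037992, protein coding, chr11:98927818-98974942, plus strand), varied least of the members among WT animals, with a coefficient of variation of 6.36% in CPM. It had 17.42, 15.46, 18.07, 19.02 and 14.13 TPM in WT animals 1 to 5 and 16, 12.72, 14.32, 17.7 and 15.44 TPM in cKO animals 1 to 5. The groups overlapped. The log2 fold change was 0.01 (SE 0.08, 95% interval -0.16 to 0.17, adjusted p = 0.966) and turned to -0.13 with scaling by library size alone, which moved the median of all genes tested from -0.03 to -0.16.

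Cyp26b1, a cytochrome P450 that breaks down retinoic acid (ENSMUSG00000063415, protein coding, chr6:84571414-84593908, minus strand), had 1, 3, 6, 3 and 0 counts in WT animals 1 to 5 and 6, 1, 2, 1 and 0 in cKO animals 1 to 5. Stra6, the cell-surface receptor for plasma retinol-binding protein (ENSMUSG00000032327, protein coding, chr9:58063788-58153996, plus strand), had 1 count in WT 5 and 0 in the other libraries. A library at 0 allows up to 3 counts, which is near the level of the libraries with counts, so a difference in either gene was not detectable at this depth. The 2 other retinoic acid hydroxylases, Cyp26a1 and Cyp26c1, had at most 2 and 0 counts in any library.

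Ordered by mean TPM, WT crypts held Rbp2, Adh1, Isx, Aldh1a1, Rdh7, Rara, Lrat, Bco1, Cyp26b1 and Stra6. In cKO crypts Aldh1a1 and Rdh7 stood above Isx, and the rest kept their places. The WT libraries of Rbp2 and Adh1 overlapped, as did those of Isx with Aldh1a1, of Aldh1a1 with Rdh7, of Rdh7 with Rara, and of Cyp26b1 with Stra6. In cKO crypts the neighbours that overlapped were Rdh7 with Isx and Cyp26b1 with Stra6, while Rbp2, Adh1 and Aldh1a1 each lay clear of the next. The spread differed as well. WT Rbp2 spanned 6.29-fold in CPM from the lowest to the highest animal and WT Aldh1a1 4.77-fold, against 1.77-fold and 2.41-fold in cKO, while Rara spanned 1.17-fold in WT and 1.25-fold in cKO.

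**Figure D2:**
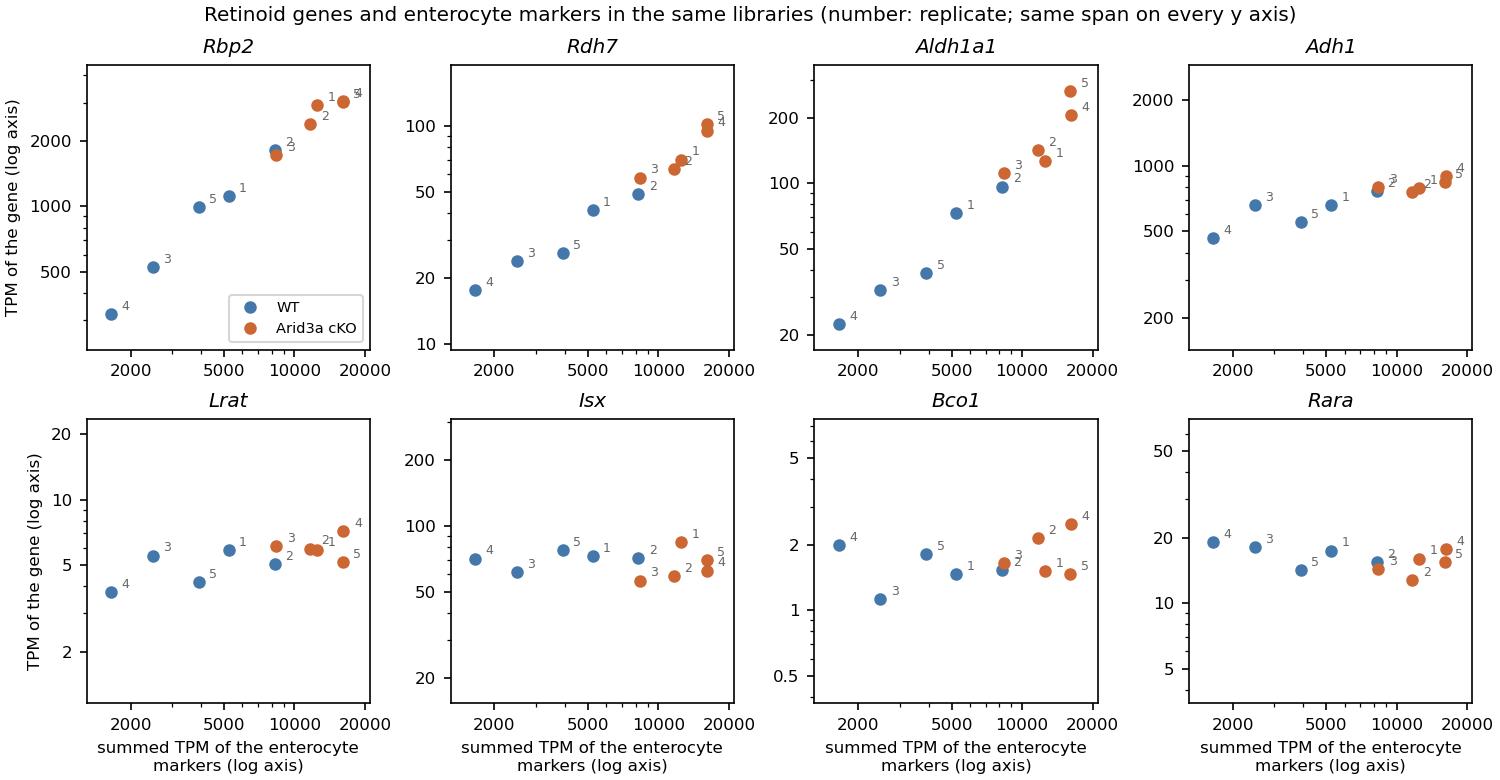
TPM of the 8 tested genes (y axis, log scale with the same span in each panel) against the summed TPM of 12 enterocyte markers (x axis, log scale) in the 5 WT and 5 Arid3a cKO libraries, numbered by replicate. Rbp2, Rdh7 and Aldh1a1 run along a diagonal that both genotypes share, with WT 4 and WT 3 at its foot, and Adh1, Lrat, Isx, Bco1 and Rara lie flatter.

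The 12 enterocyte markers, among them Alpi, Sis and Lct, summed to 5245, 8233, 2488, 1655 and 3906 TPM in WT animals 1 to 5 and to 12490, 11690, 8361, 16190 and 16080 TPM in cKO animals 1 to 5. All 12 were called as higher in cKO, by 1.32 to 2.06 on the log2 scale, and none was at 0. Over all genes tested, 15.6% were called as higher. The largest parts of the sum were Fabp1, Fabp2, Apoa1 and Apoa4. Their means were 1037, 931.2, 631.6 and 442.9 TPM in WT and 2889, 2531, 2159 and 1769 TPM in cKO. Alpi, Sis and Lct had means of 197, 194.1 and 26.6 TPM in WT and 663.1, 636 and 97.75 TPM in cKO. The order of the sum and percentages of it thus rest mostly on the genes with the largest parts. The WT libraries fell in the same order for this sum as for Rbp2, Rdh7 and Aldh1a1, with WT 4 lowest and WT 2 highest. Among the cKO libraries Rbp2 again had the order of the sum, but Rdh7 and Aldh1a1 did not, since cKO 5 lay above cKO 4 for both. For Aldh1a1 cKO 2 also lay above cKO 1, the reverse of the sum. Expressed as a percentage of the sum in the same library, a description chosen after the values were seen, Rbp2 stood at 21.9 ± 2.26% in WT and 20.5 ± 1.90% in cKO (SD, n = 5), with ranges of 19.4 to 25.5% and 18.8 to 23.5%. Aldh1a1 stood at 1.24 ± 0.165% and 1.30 ± 0.232%, and the ranges overlapped. Rdh7 stood at 0.815 ± 0.197% and 0.605 ± 0.0604%, again with overlap. Adh1, which rose less than the markers, stood at 18.2 ± 8.56% in WT and 6.63 ± 1.72% in cKO, and Isx, which was not called, at 2.20 ± 1.31% and 0.533 ± 0.135%. The sum itself did not overlap between the genotypes, so a gene with a level near the same in both, such as Isx or Rara, has a lower percentage in cKO by construction. What part the enterocyte content of a library had in each result was not tested.

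Other cell types moved less or the other way. Of 6 Paneth cell markers 4 were called as lower, and their sum, with Lyz1, Mptx2 and Mmp7 among those called, was 9228 to 17150 TPM in WT and 6076 to 8798 in cKO. Of 6 crypt-base stem cell markers 4 were called as lower, with Olfm4 and Ascl2 among them and Lgr5 not, and their sum was 2464 to 4544 TPM in WT and 1846 to 2966 in cKO. None of 7 goblet cell markers was called (3244 to 5484 and 4109 to 4890 TPM). Of the 8 enteroendocrine markers 4 were higher (237.1 to 284 and 286.5 to 440.2 TPM), one of them Rbp4, and 3 of 5 tested tuft cell markers were higher (28.23 to 40.07 and 30.46 to 39.57 TPM). Markers of other tissues were low: 8 fibroblast markers summed to 3.57 to 44.33 TPM in WT and 4.14 to 54.42 in cKO with none called, and 10 leukocyte markers to 62.22 to 119.9 and 33.7 to 83.58 TPM with Jchain, a plasma cell gene, called as lower. Smooth muscle (at most 4.59 TPM, Acta2 lower) and endothelial markers (at most 5.28 TPM, Pecam1 lower) were near the floor. Of the 6 markers of the duodenum and proximal jejunum 2 were higher (328.1 to 456.9 and 504.4 to 611.4 TPM). Of the 5 of the ileum 1, Nr0b2, was higher, and the list summed to 24.7 to 113.5 and 83.49 to 133.2 TPM. Nr0b2 was a small part of that sum, with means of 1.688 and 2.606 TPM in WT and cKO. Its largest parts were Slc51a and Slc51b, which were higher in mean but not called (adjusted p of 0.0534 and 0.0862, edgeR). Of the 7 epithelial markers 2 were higher, Krt20 and Vil1. Beside these counts, 15.6% of all genes tested were called as higher and 12.7% as lower, so 1 or 2 calls in a short list say little about a cell type.

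Outside the 10 members, 50 further genes of retinoid metabolism were listed, of which 36 passed the filter. In cKO crypts 15 of the 36 were higher and 3 lower, beside 15.6% and 12.7% of all genes tested, and their median log2 fold change was 0.35. Of these 18 calls, 11 held in all 10 fits that left out 1 animal, and those of Rbp4, Rdh5, Rdh9, Rdh16, Adh4, Fabp5 and Stra6l were lost in at least 1. Of the 11, Rdh10 missed the threshold in both fits on TPM (0.26 and 0.24, adjusted p of 0.0536 and 0.0530). Rdh5, Rdh16 and Stra6l also missed it on TPM, where Rdh5 stood at 0.25 and 0.20 (adjusted p of 0.357 and 0.353), and Rdh5 (adjusted p = 0.205) and Stra6l (adjusted p = 0.0887) missed it with the effective length offset. With library size alone Rdh5 and Rdh16 were not called, with no filter on low counts Adh4, Rdh5 and Rdh9 were not, and with the replicate block Adh4, Rdh5, Rdh9 and Rdh16 were not. Without WT 3 and WT 4 together, 11 genes were higher and 1 lower.

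**Figure D3:**
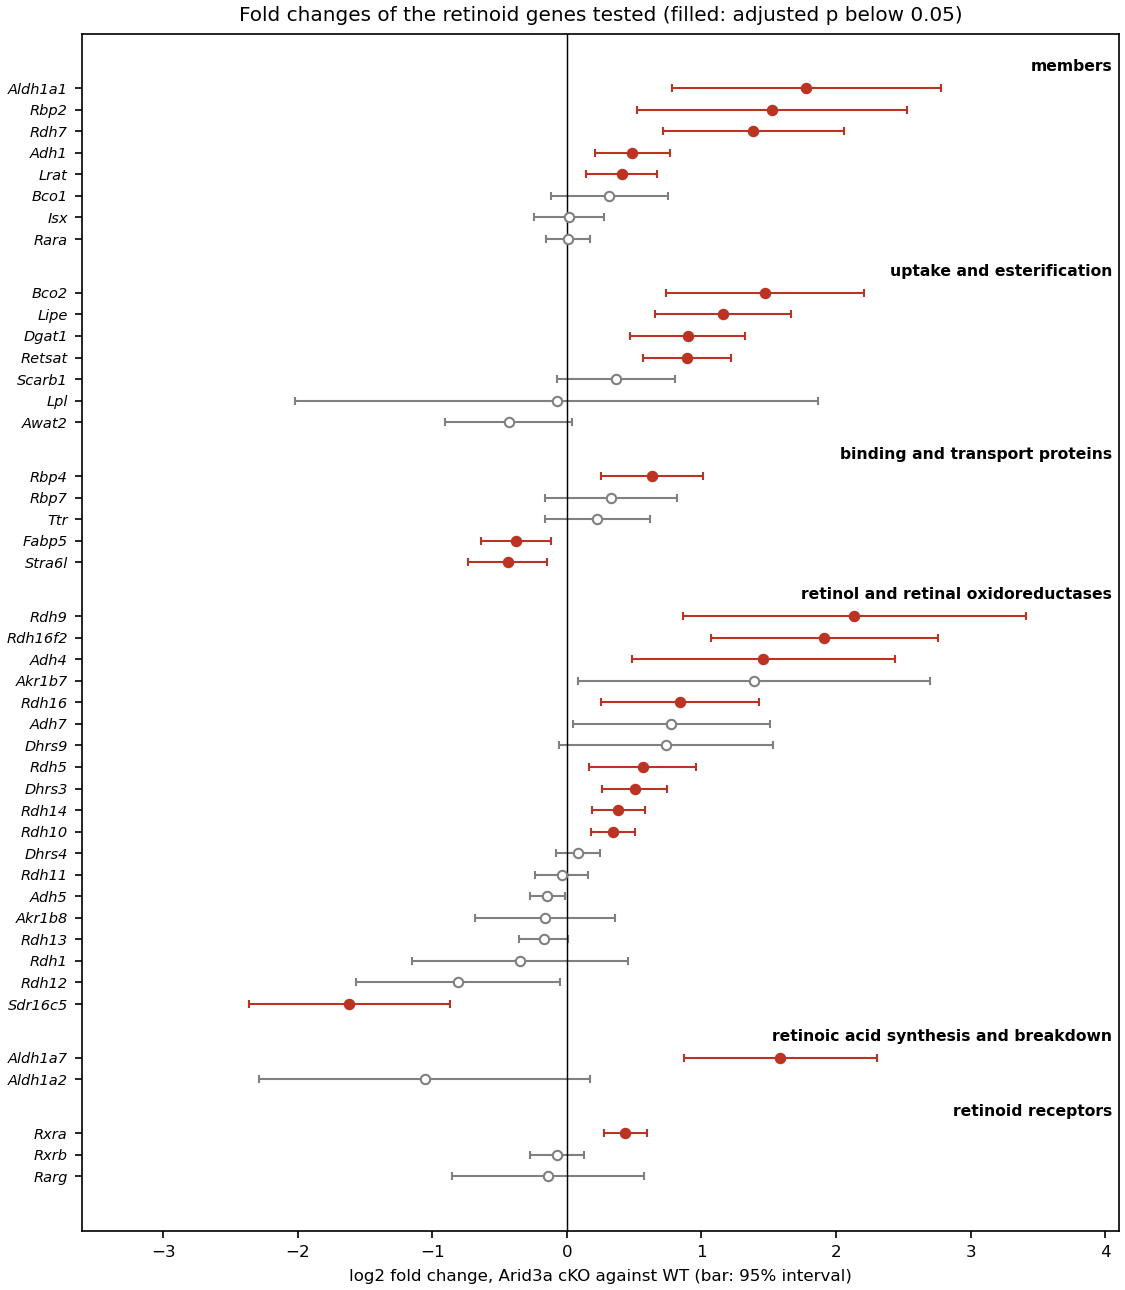
Log2 fold change of Arid3a cKO against WT (x axis, point with its 95% interval) for the 8 tested members and the 36 other tested retinoid genes, grouped by role (y axis), filled where the adjusted p of edgeR's quasi-likelihood test was below 0.05. The filled points lie to the right of 0 for 5 members and 15 other genes and to the left for Sdr16c5, Stra6l and Fabp5.

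In uptake and esterification, 4 of 7 tested genes rose and none fell: Bco2, the mitochondrial carotenoid-cleaving enzyme, Dgat1, an acyltransferase of triglycerides and retinol, Lipe, a lipase that also releases retinol from its esters, and Retsat, which saturates retinol. Lipe had 4.36 to 10.45 TPM in WT (median 5.4) and 10.56 to 18.62 in cKO (median 14.38), a log2 fold change of 1.16 (SE 0.23, adjusted p = 0.00521). Retsat had 38.93 to 54.75 TPM in WT and 58.42 to 101.04 in cKO, a log2 fold change of 0.89 (SE 0.15, adjusted p = 0.00213). Neither overlapped between the groups.

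Among binding and transport proteins Rbp4, the plasma carrier of retinol, rose, and Fabp5, which delivers fatty acids and retinoic acid, and Stra6l, a second receptor for Rbp4, fell, out of 5 tested. Stra6l had 5.69 to 10.52 TPM in WT and 5 to 6.92 in cKO, with overlap, and a log2 fold change of -0.44 (SE 0.14, adjusted p = 0.0298). Fabp5 had 14.81 to 20.05 TPM in WT and 11.25 to 14.44 in cKO, with a log2 fold change of -0.38 (SE 0.12, adjusted p = 0.0328). Its groups lay apart in TPM but overlapped in CPM. Leaving out 1 animal kept the Stra6l call in 4 of 10 fits and the Fabp5 call in 3 of 10.

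Of 19 tested retinol and retinal oxidoreductases, 8 rose, namely Adh4, Dhrs3, Rdh5, Rdh9, Rdh10, Rdh14, Rdh16 and Rdh16f2, and Sdr16c5 fell. Rdh16f2 had 0.84 to 3.13 TPM in WT and 4.12 to 11.44 in cKO, without overlap, and a log2 fold change of 1.91 (SE 0.38, adjusted p = 0.00524). Sdr16c5, an epidermal-type retinol dehydrogenase, was scarce: WT animals 1 to 5 had 27, 28, 29, 22 and 15 counts and cKO animals 1 to 5 had 6, 7, 15, 5 and 5. Its log2 fold change was -1.62 (SE 0.34, adjusted p = 0.00574). Of the 7 genes listed under retinoic acid synthesis and breakdown, Aldh1a7 rose and Aldh1a2 was not called (-1.06, adjusted p = 0.181). The other 5 genes had too few counts to test. Aldh1a7 is a close paralog of Aldh1a1, and whether its enzyme forms retinoic acid was not tested.

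Among the receptors, Rxra, the retinoid X receptor alpha, rose. It had 29.08, 28.71, 29.7, 25.72 and 22.9 TPM in WT animals 1 to 5 and 35.7, 30.79, 33.07, 37.56 and 35.37 TPM in cKO animals 1 to 5. The groups did not overlap, although WT 3 came near cKO 2. Rxra rose by 0.43 on the log2 scale (SE 0.07, adjusted p = 0.00188, edgeR), the smallest adjusted p among the retinoid genes, and it held in all 10 fits that left out 1 animal, at 0.39 to 0.47. Rxrb (-0.07, SE 0.09, adjusted p = 0.570) and Rarg (-0.14, SE 0.33, adjusted p = 0.778) were not called, and both changed sign when 1 animal was left out. Rarb, with at most 13 counts in a library, and Rxrg, with at most 1, were not tested.

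Of 10 genes listed as responsive to retinoic acid, 5 were tested. Lrat and Dhrs3, a retinal reductase, rose, Tgm2, a transglutaminase, fell by 0.39 on the log2 scale (adjusted p = 0.00223, no overlap), and Isx and Hic1 were not called. The median log2 fold change of the 5 was 0.02, against -0.03 for all genes tested. Cyp26a1, Cyp26b1, Rarb, Crabp2 and Stra6 had too few counts to test.

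**Figure D4:**
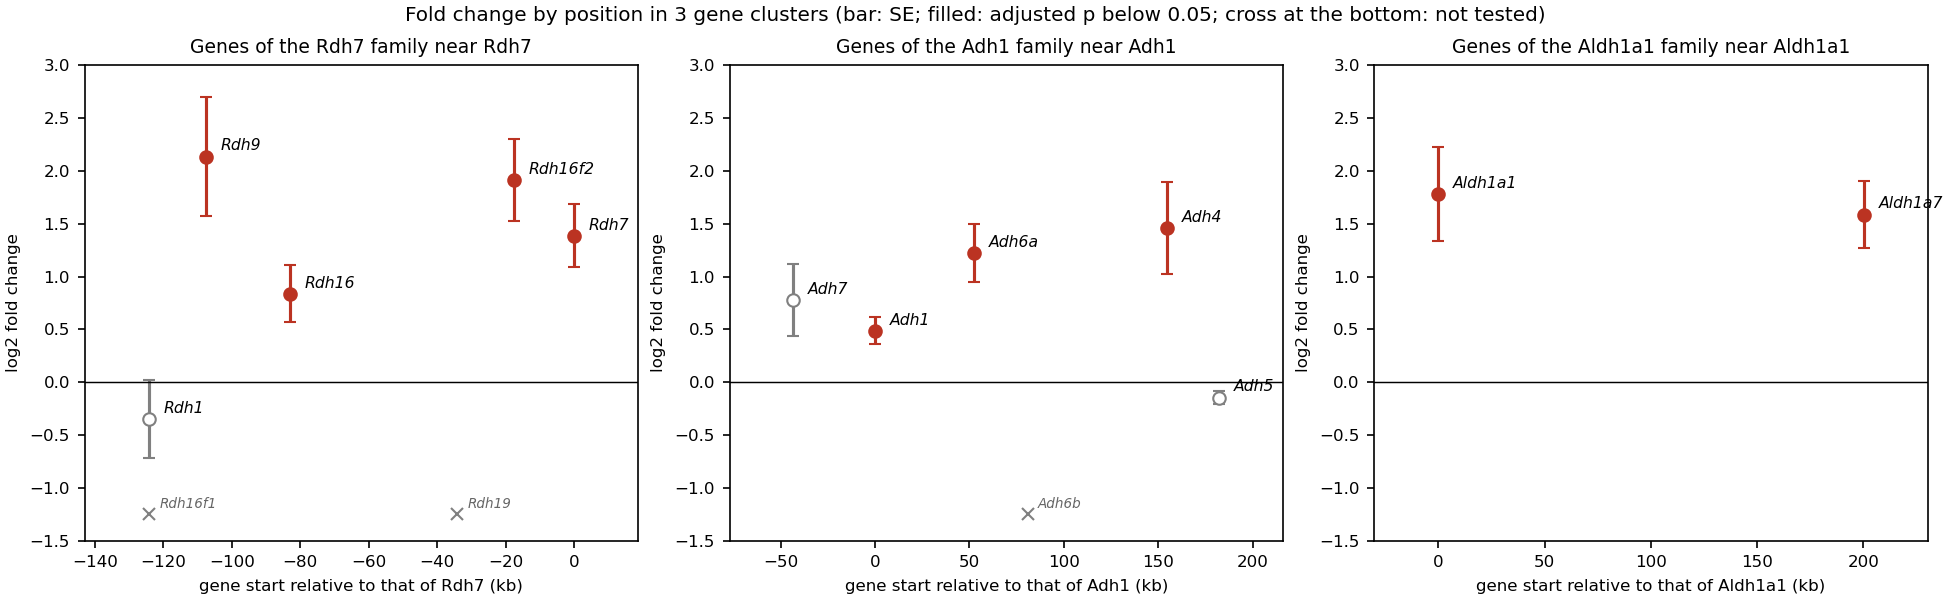
Log2 fold change with SE (y axis) against the position of the gene start relative to that of Rdh7, Adh1 or Aldh1a1 (x axis, kb) for related genes of the same cluster. The gene start is taken as its lowest coordinate, whatever the strand. Filled points had an adjusted p below 0.05, open points did not, and crosses at the foot mark genes that were not tested; Rdh9 at 2.14 is highest and Rdh1 at -0.35 lowest.

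Rdh7, Adh1 and Aldh1a1 each lie beside related genes, which were taken here by position after their values had been seen. Distances run between the lowest coordinates of the genes, whatever their strand, so the gap between neighbours is smaller. On chromosome 10, Rdh16f2, Rdh16 (0.84, adjusted p = 0.0360) and Rdh9 (2.14, adjusted p = 0.0219) lie within 107.6 kb of Rdh7 and rose with it, while Rdh1, 124.3 kb away, had 7 to 29 counts in WT and was not called (-0.35, adjusted p = 0.507). Rdh1 and Rdh9 both overlap the listed gene Rdh16f1, which had at most 15 counts in a library, so the division of reads among these genes is uncertain. On chromosome 3, Adh6a, which is on none of the gene lists, lies 52.3 kb from Adh1 and rose from 234.9 to 522.6 mean TPM (1.22, SE 0.27, adjusted p = 0.00979), and Adh4, 154.5 kb away, rose as well (1.46, adjusted p = 0.0333). At the ends of that cluster Adh7 (0.78, adjusted p = 0.104) and Adh5, which every tissue expresses (-0.14, adjusted p = 0.0869), were not called. On chromosome 19, the lowest coordinate of Aldh1a7 lies 200.2 kb from that of Aldh1a1, which itself spans 150751 bases. Aldh1a7 is on the opposite strand and rose by 1.59 (SE 0.32, adjusted p = 0.00690).

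Reads shared by similar genes were divided by RSEM, so these families were also summed. Transcripts of Aldh1a1 and Aldh1a7 were 88.8% identical over 86.3% of the Aldh1a1 transcript, and Rdh7 was 83.4 to 86.9% identical to Rdh1, Rdh9, Rdh16, Rdh16f2 and Rdh19 over 58.9 to 63.5% of its length. Summed before the same fit, Aldh1a1 with Aldh1a7 rose by 1.76 (adjusted p = 0.0161) and the Rdh7 family by 1.47 (adjusted p = 0.00923). Aldh1a1 made up 87.4% of its pair in WT and 88.8% in cKO, and Rdh7 81.7% and 77.1% of its family.

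**Figure D5:**
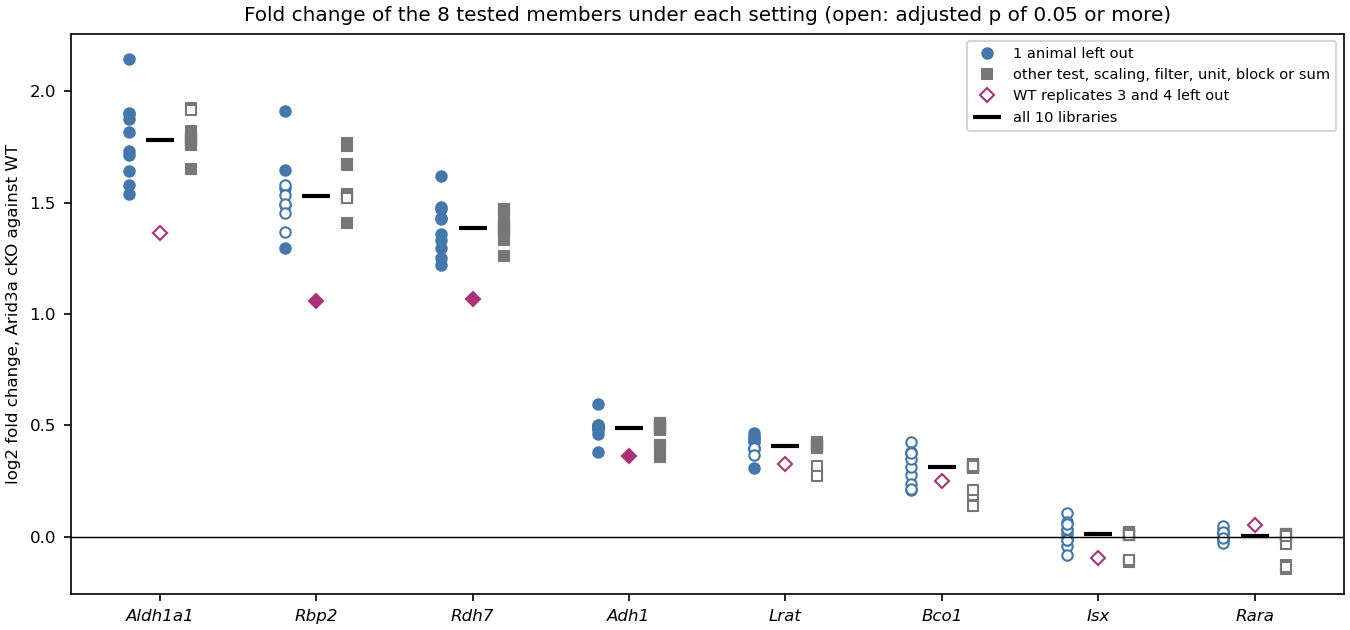
Log2 fold change (y axis) of the 8 tested members (x axis) with all 10 libraries (bar), with 1 animal left out (circles), without WT 3 and WT 4 (diamonds) and under the other settings (squares), open where the adjusted p was 0.05 or more. Rdh7 and Adh1 are filled throughout, Rbp2 is open in 7 of 10 circles, and Isx and Rara straddle 0.

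The genes most like Rbp2 within genotypes, by Pearson's r of log2 CPM after subtracting the genotype mean over 10 libraries, among 11956 genes with a mean of at least 50 normalised counts, were Fabp1 (0.992), Apoa1 (0.989) and Ggt1 (0.987). All 3 were called as higher in cKO, by 1.55, 1.85 and 1.86. Fabp1 and Apoa1 are also among the 12 enterocyte markers summed above, so their likeness is not separate from the comparison of Rbp2 with that sum. For Isx they were Slc35a2 (0.972), Il15ra (0.961) and 2010016I18Rik (0.923), none of them called. Among the members themselves, Rdh7 and Aldh1a1 were most alike (0.989), then Rbp2 and Rdh7 (0.917) and Rbp2 and Aldh1a1 (0.889). Adh1 came next, with Rdh7 (0.836), Rbp2 (0.820), Aldh1a1 (0.805) and Lrat (0.728), and then Rbp2 with Isx (0.541). Isx with Lrat (-0.21) and Bco1 with Rbp2 (0.03) were not alike. These values describe 10 libraries that share their depth and cell makeup, and carry no test.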

How the data were processed

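Per the authors' methods, nf-core/rnaseq 3.0 was run with STAR for alignment and RSEM for the counts of genes, against Ensembl release 95 of GRCm38, and the submitters' processing notes also name DESeq2. They deposited, per library, the expected count, the TPM and the FPKM of 54838 genes, not normalised between libraries. The FPKM values were not used. RSEM divides reads shared by similar genes, and the strand setting is not given in the sources used here, so that counts of overlapping or antisense genes may be mixed.

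After rounding of the expected counts, edgeR 4.0.16 was run in R 4.3.3 with filterByExpr by genotype (minimum count 10, total 15), TMM, and the robust quasi-likelihood test with Benjamini-Hochberg adjustment at 0.05 over 14719 genes. Levels are deposited TPM unless CPM is named, and tests used the counts. TPM also reflects the estimated effective lengths in each library and carries no TMM factor, so the order of libraries can differ between TPM and CPM. Genes without a symbol (115, with 0.0193% of counts) stayed in the library sizes. Depth gives about 26.4 to 29.9 counts at 1 CPM, and intervals cover the spread between animals, while the limit of 3 counts for a 0 covers counting error only. Alternatives used DESeq2 1.42.0, limma 3.58.1 (voom, or log2 of TPM plus 0.1 or 1), RLE factors, library size alone, other filters, unrounded counts, an effective length offset, a replicate block, and leaving out animals. Leaving out WT 3 and WT 4 together and summing close paralogs were added after seeing the data. The fit was tested on simulated data with few changed genes, as many raised as lowered. That setting is simpler than these libraries and does not show how the fit behaves where many genes change. Positions came from GENCODE for GRCm38 (Ensembl release 96), transcript identities from BLAST 2.17.0, and start-site windows from RefSeq on GRCm38.p6, where all 10 members had a window.

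The members, gene lists and markers were chosen with earlier results of these data known. Named were the 10 members, every other retinoid gene called (values for the 4 smallest adjusted p in each direction), every receptor, the Isx axis, Arid3a, up to 3 markers per list, and the 3 genes most like Rbp2 and Isx. Likeness was not computed for Cyp26b1, which failed the filter. Genes named outside this rule were chosen after their values were seen. 1 gene that had been on the lists is not reported here and was left out of their counts.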

Additional observations from a re-analysis of the deposited data

Results flagged for a closer look

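Sdr16c5, an epidermal-type retinol dehydrogenase gene, had 1 cKO library far from the other 4: cKO 3 stood at 0.525 CPM and the others at 0.17 to 0.258 CPM, a gap of 0.752 of the range of the group. That library held 15 counts of the gene and the others 5 to 7. Among 33 genes tested in both groups, 66 sets of 5 libraries in all, it was the only set past the limit of 0.71, and chance gives about 1 in 20. Without cKO 3 the log2 fold change of Sdr16c5 was -2.00, and it was past the threshold in all 10 fits that left out 1 animal.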

How the results depend on the processing

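The calls of Rdh7 and Adh1 held under every alternative run, and those of Rbp2, Lrat and Aldh1a1 did not. With no filter on low counts Rbp2 missed the threshold (adjusted p = 0.0826), and it was called in 3 of the 10 fits that left out 1 animal (1.30 to 1.91). The number of members called ran from 3 (without WT 5, cKO 2 or cKO 4) to 5 when 1 animal was left out, and 3 were called without WT 3 and WT 4 together. The replicate numbers did not pair the animals: deviations of same-numbered libraries correlated at -0.16, -0.04, 0.13, -0.14 and -0.15, and no WT library matched its own number best. With the number as a replicate block, 4 members were called, Aldh1a1 missing the threshold (1.91, adjusted p = 0.0552), 14 other retinoid genes in place of 18, and 1191 genes were lower in place of 1869.

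Over all genes, 2143 were called without WT 3 and WT 4 (1472 higher, 671 lower), and leaving out 1 animal gave 3007 to 4684 (1760 to 2572 higher, 1131 to 2112 lower), lowest without WT 4 for the lower calls. Fits on TPM called 1399 and 1411 genes as higher. Library size alone called 1541 as higher and 4030 as lower, where the median log2 fold change of all genes was -0.16, and the median was -0.13 on TPM plus 0.1. Other retinoid genes called as lower numbered 5 with library size alone, 1 without WT 3 and WT 4, and 1 to 3 when 1 animal was left out (1 without WT 3, WT 4, cKO 1 or cKO 5). Library size alone leaves out the TMM factors, which were 1.004 to 1.083 in WT libraries and 0.9339 to 0.9862 in cKO libraries, without overlap. The cause of these changes in calls and medians was not tested.

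Signs turned for genes near 0. Isx was -0.11 with library size alone and in both fits on TPM, -0.10 without WT 3 and WT 4, and -0.0798 to 0.11 when 1 animal was left out. Rara was -0.13 with library size alone, -0.14 and -0.13 on TPM, -0.0313 with the length offset, -0.0008 with a mean of at least 1 CPM, and -0.027 to 0.0473 with 1 animal left out. Gata4 was -0.13, -0.0396 and -0.0393 in the same scalings, -0.0051 with a mean of at least 1 CPM, -0.0151 without WT 3 and WT 4, and -0.0224 to 0.0311 with 1 animal left out. Rarg was 0.0023 without WT 3 and WT 4 and -0.39 to 0.0648 with 1 animal left out, and Rxrb -0.12 to 0.0368.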
